A study of Mus musculus with 16 samples.

Results

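The ATP-binding cassette (ABC) transporter family was examined in messenger RNA from mammary glands of Socs2-Δs and wild-type mice. Members were the rows of the deposited table whose symbol is Abc, a subfamily letter from a to g, a number and at most 1 further letter. Abca1 and Abcg1 were left out. This gave 48 of 24187 rows, and the 31 members whose average across the 7 libraries reached 1 FPKM were tested. FPKM are reads per kilobase of gene, scaled to library size, so that levels of different genes can be set side by side. The 17 members under that mean are described without a test. The choice used gene names and mean level, not the difference between genotypes, but it was made with earlier results of these data known.

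Socs2-Δs (Mut) mice gave 3 libraries. They carry a CRISPR/Cas9 edit named for Socs2, whose product restrains JAK-STAT signalling. Wild-type C57BL/6 mice bought from a commercial breeder gave 4 libraries. All 7 came from mammary tissue of strain C57BL/6 at day 13 of pregnancy, when alveoli are forming and milk genes begin to be transcribed. The labels do not give the age of the mice, the extent of the edit, or the number of founder animals, and breeding source runs together with genotype. Whether each replicate was its own animal is not stated, and the p-values reflect only how far these samples scatter, which may be technical. For the mutant RNA libraries one label field gives the genotype as wild type while the titles say Mut, and the titles were used for grouping.

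ABC proteins bind and hydrolyse ATP, and most use it to move substrates across a membrane. Subfamily A carries lipids, B and C hold drug pumps, organelle transporters and potassium channel subunits, D serves peroxisomes and lysosomes, and G holds half-transporters for sterols and drugs. Members of E and F have no membrane domain and act on ribosomes and translation. In the mammary gland the best known member is Abcg2, the breast cancer resistance protein, which sits in the apical membrane of alveolar cells and moves riboflavin and many drugs into milk.

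The libraries held 21.3 to 24.5 M (mega) reads, recovered as the smallest whole numbers that fit each gene's FPKM values. Behind a tested member stood 62 to 7029 reads per library. On the first principal component, wild-type replicates 3 and 4 scored 57.1 and 77.9, far from the 3 mutant libraries (-37.7 to -29.6) and from wild-type replicates 1 and 2 (-15.8 and -18.2). For many genes, values against wild-type replicates 1 and 2 alone are therefore given beside those against all 4. Where only 1 difference is given, it is against all 4 unless stated. Socs2 itself measured 17.1, 13.9 and 16.0 FPKM in mutant libraries, against 25.6, 22.1, 24.8 and 16.1 FPKM in wild-type replicates 1 to 4. Its lower level did not pass (limma adjusted p = 0.267), so the transcript level alone does not check the labels.

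At this stage the gland transcribed the peroxisomal, ribosomal and milk-exporting members most. The 5 most abundant members were Abcd3, Abcf1, Abce1, Abcg2 and Abcd2, with means of 46.9, 41.2, 34.0, 32.5 and 27.2 FPKM over the 7 libraries. Together they made up 49.5 to 55.1% of the family's summed FPKM in mutant libraries and 46.5 to 61.3% in wild-type libraries. The sum itself was 350.3 to 371.1 FPKM in mutant libraries and 324.7 to 358.6 FPKM in wild-type libraries, and the groups overlapped. Of the tested members, 9 had a mean of at least 10 FPKM and 22 lay between 1 and 10 FPKM. The lowest tested member was Abcc4, an exporter of cyclic nucleotides and prostaglandins, with a mean of 1.50 FPKM. The highest untested one was Abca17, with 0.606 FPKM.

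**Figure D1:**
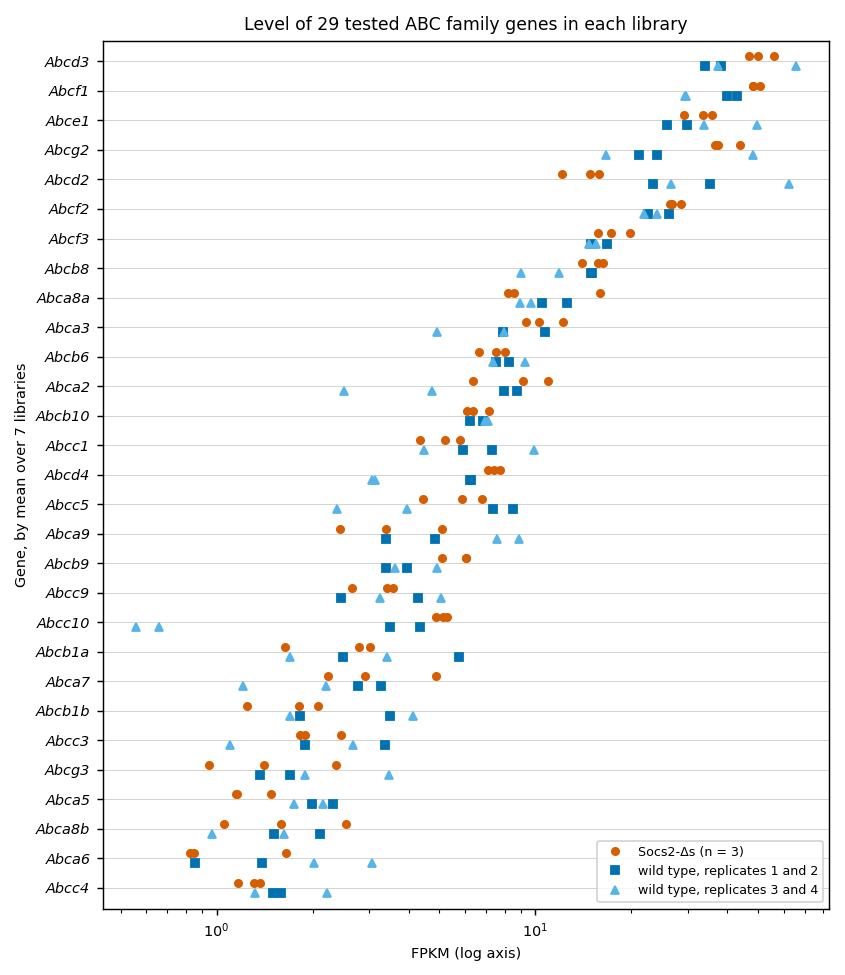
FPKM (log axis) of 29 tested ABC family genes in each library, sorted by the mean over 7 libraries, with Socs2-Δs libraries as circles, wild-type replicates 1 and 2 as squares and wild-type replicates 3 and 4 as triangles. Abcd3 leads at a mean of 46.9 FPKM and Abcc4 is last at 1.50; the circles of Abcd2 all lie left of the wild-type symbols, and the triangles of Abcc10 lie far left of all other symbols.

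No member of the family passed the test between genotypes. With all 7 libraries 0 of 31 members had an adjusted p under 0.05 (limma on log2(FPKM + 1), Benjamini-Hochberg over 13392 genes), where 0.0448% of all tested genes did, each of them higher in mutant glands. Without adjustment, a p under 0.05 was reached by 6 members (19.4%), 4 higher and 2 lower, beside 18.1% of all tested genes (9.12% higher and 8.98% lower). The log2 difference was above 0 for 16 members (51.6%, beside 49.6% of all tested genes) and below 0 for 15. Its median was 0.01 over the members and -0.0044 over all tested genes.

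Against wild-type replicates 1 and 2 again 0 of 31 passed, where 1.94% of all tested genes did (1.26% higher and 0.68% lower). The smallest adjusted p was 0.0524, that of Abcg2. An unadjusted p under 0.05 was reached by 6 members, 4 higher and 2 lower, beside 20.1% of all tested genes (9.35% higher and 10.8% lower). Array weights, which weight each library by its residual scatter, were 0.172 and 0.173 for wild-type replicates 3 and 4. They were highest for mutant replicate 2 (4.76) and wild-type replicate 2 (2.92), and 1.06 to 1.54 for the remaining libraries. Under these weights 2 members passed as higher (Abcg2 and Abcb9) and 2 as lower (Abcd2 and Abca5). Of all tested genes, 4.74% passed as higher and 5.50% as lower. These calls lean most on replicate 2 of each genotype. All log2 differences given are mutant minus wild type with 1 FPKM added before the logarithm, so those of weakly transcribed genes come out too small.

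In 7 members the mutant libraries did not overlap with the wild-type ones, 5 higher and 2 lower, or 22.6% of members beside 22.5% of all tested genes (12.5% higher and 10.0% lower). The higher ones were Abcc10, Abcd4, Abcf1, Abcb9 and Abcf2, and the lower ones were Abcd2 and Abca5. Against wild-type replicates 1 and 2 there were 13 such members, 8 higher and 5 lower, 41.9% beside 39.9% of all tested genes (21.8% higher and 18.1% lower). These shares lie near those of all genes and are no result about the family. With all 7 libraries the 95% interval of the log2 difference lay within -1 to 1 for 21 of the 31 members, so that for the other 10 a change of that size is not bounded by these libraries.

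**Figure D2:**
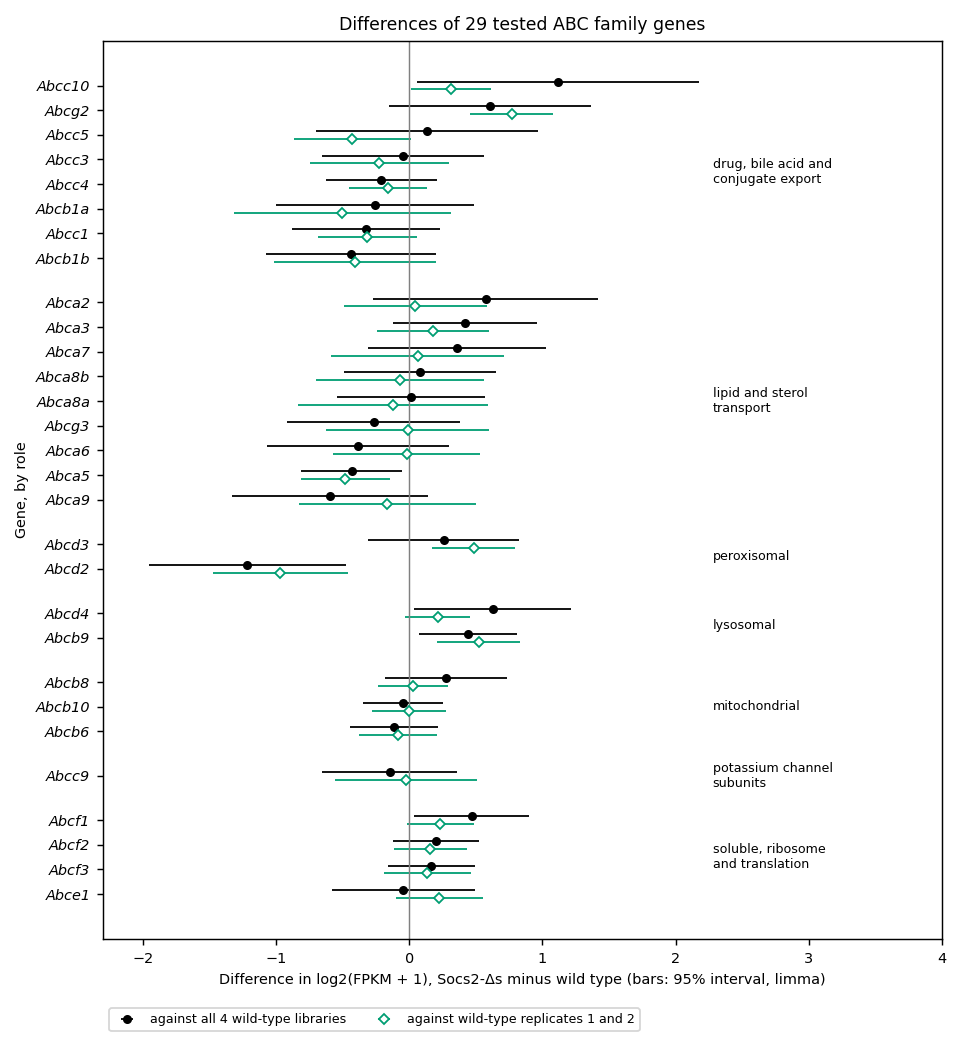
Difference in log2(FPKM + 1), Socs2-Δs minus wild type, of 29 tested genes by role, with 95% intervals, against all 4 wild-type libraries (filled circles) and against wild-type replicates 1 and 2 (open diamonds). Abcd2 lies farthest left at -1.22 and -0.97, Abcc10 farthest right at 1.12 against all 4 but at 0.31 against replicates 1 and 2, and Abcg2 lies at 0.61 and 0.77.

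Among exporters of drugs, bile acids and conjugates, Abcg2 was the most abundant by far, and its mutant libraries lay above 3 of the 4 wild-type ones. Abcg2 (Entrez 26357, chromosome 6) measured 36.7, 37.3 and 43.7 FPKM in mutant libraries, against 21.1, 24.0, 48.1 and 16.7 FPKM in wild-type replicates 1 to 4. The groups overlapped through wild-type replicate 3, the highest library of all 7, while replicate 4 was the lowest. Means were 39.2 ± 3.90 FPKM in mutant glands (SD, n = 3) and 27.5 ± 14.1 FPKM in wild type (SD, n = 4), a log2 difference of 0.61 (SE 0.33, limma adjusted p = 0.338). Against wild-type replicates 1 and 2 the difference was 0.77 (SE 0.13, 95% interval 0.46 to 1.08) and did not pass either (limma adjusted p = 0.0524).

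Within the wild-type libraries, most secretory and luminal markers and both sums ran in the same order as Abcg2. The 6 alveolar markers, all detected in every library, summed to 58683 to 74977 FPKM in mutant libraries and to 3357 to 31516 FPKM in wild-type ones, with replicate 3 highest and replicate 4 lowest. The 7 luminal markers, which mark the luminal part of the epithelium, summed to 1438 to 2168 FPKM in mutant libraries and to 709.6 to 1782 FPKM in wild-type ones, again with replicate 3 highest and replicate 4 lowest. The 6 basal and myoepithelial markers summed to 752 to 908 FPKM in mutant libraries. In wild-type replicates 1 to 4 the basal sum was 775, 880, 812 and 456 FPKM, not in the order of Abcg2. Taken singly, 5 of the 6 alveolar markers (not Lalba) and 5 of the 7 luminal markers (not Kit and Krt19) had the wild-type order of Abcg2. Their part in the values of Abcg2 was not tested. In bulk tissue, fewer cells of a type and less RNA per cell cannot be told apart.

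Riboflavin, a substrate of Abcg2, enters cells through the SLC52 transporters, and their genes were read beside it. Slc52a2 measured 17.5, 23.3 and 29.8 FPKM in mutant libraries, against 8.80, 11.3, 8.42 and 6.39 FPKM in wild-type replicates 1 to 4. All mutant libraries lay above all wild-type ones, and the difference did not pass (log2 difference 1.33, limma adjusted p = 0.110; 1.13 and 0.0746 against wild-type replicates 1 and 2). The second uptake gene, Slc52a3, was low in both groups at 1.60 ± 0.216 FPKM in mutant glands (SD, n = 3) and 1.78 ± 0.524 FPKM in wild type (SD, n = 4). Rfk and Flad1, which turn riboflavin into its coenzymes, differed by 0.30 and 0.48 without passing.

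Abcc10, or multidrug resistance protein 7, showed the largest positive difference of the family with all 7 libraries, but not against wild-type replicates 1 and 2, where Abcg2 did. Its level was 5.29, 5.13 and 4.86 FPKM in mutant libraries, against 4.34, 3.50, 0.559 and 0.661 FPKM in wild-type replicates 1 to 4. Every mutant library was above every wild-type one, but wild-type replicates 3 and 4 lay far below replicates 1 and 2, at 68 and 77 reads where those had 632 and 480. Abcc10 had a log2 difference of 1.12 (SE 0.46, limma adjusted p = 0.262) with all 7 libraries and 0.31 (SE 0.12, limma adjusted p = 0.233) against wild-type replicates 1 and 2.

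The other conjugate pumps pointed mostly to lower values in mutant glands, by amounts within the spread. Abcc1, the glutathione conjugate and leukotriene exporter, averaged 5.13 ± 0.731 FPKM in mutant glands and 6.90 ± 2.32 FPKM in wild type (SD, n = 3 and 4; log2 difference -0.33, limma adjusted p = 0.452). Abcc4 differed by -0.21 and Abcc3, a basolateral pump for glucuronides and bile acids, by -0.05. Against wild-type replicates 1 and 2 they differed by -0.16 and -0.23. Abcc5, a pump for cyclic nucleotides and amino acid conjugates, differed by 0.13 with all 7 libraries and by -0.43 against wild-type replicates 1 and 2, so its direction depended on replicates 3 and 4 (2.38 and 3.96 FPKM, against 8.53 and 7.36 FPKM in replicates 1 and 2). Mutant libraries of Abcc5 lay between these pairs, at 6.78, 5.89 and 4.45 FPKM. None of these passed in either comparison.

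The promoters of the family were searched for the STAT consensus because the series also holds STAT5A ChIP-seq samples, not analysed here. Windows of 300 bases, 250 before and 50 after the RefSeq start (build GRCm38.p6), were given for 37 of the 48 members, 23 of them tested. The motif TTCNNNGAA, which reads the same on both strands, was found in 2 of their 44 windows, or 4.55%, beside 8.30% of all 32851 windows. The 2 matches are shown with the motif in capitals, 5′ to 3′ along the gene. The stretches shown, flanking bases included, are chr16:20426426-20426474 for Abcc5 and chr14:118706200-118706226 for Abcc4, both on the minus strand. The Abcc5 match begins 60 bases before the start, and the Abcc4 match begins at base 3, counting the start as base 1.
Abcc5: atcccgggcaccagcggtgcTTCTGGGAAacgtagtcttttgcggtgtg
Abcc4: ggcgcttggTTCCCGGAAgccgctgct
The log2 differences of these genes, 0.13 and -0.21 with all 7 libraries and -0.43 and -0.16 against wild-type replicates 1 and 2, did not pass. A match describes letters in the window, not a bound site.

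The paired P-glycoprotein genes Abcb1a and Abcb1b, broad drug pumps of blood vessel and epithelial cells, lie near each other on chromosome 5. They are close copies whose reads can be shared, and their split is uncertain. Abcb1a measured 2.79, 3.03 and 1.64 FPKM in mutant libraries, against 5.76, 2.49, 1.70 and 3.43 FPKM in wild-type replicates 1 to 4. The groups overlapped, and wild-type replicate 1 was the highest library. Abcb1b averaged 1.72 ± 0.426 FPKM in mutant glands and 2.79 ± 1.21 FPKM in wild type (SD, n = 3 and 4). The log2 differences of -0.26 and -0.44 did not pass (limma adjusted p = 0.651 and 0.390). Against wild-type replicates 1 and 2 they were -0.50 and -0.41 and did not pass either. The 6 blood endothelial markers summed to 125.0 to 150.6 FPKM in mutant libraries and to 130.7 to 198.5 FPKM in wild-type ones; their part was not tested.

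Abcd2 showed the largest difference of any member, lower in the Socs2-Δs glands. It encodes a peroxisomal importer of very long-chain and unsaturated fatty acids and is abundant in mouse adipose tissue. Abcd2 (Entrez 26874, chromosome 15) measured 15.8, 14.8 and 12.2 FPKM in mutant libraries, against 35.3, 23.4, 26.7 and 62.2 FPKM in wild-type replicates 1 to 4. Every mutant library lay below every wild-type one, and wild-type replicate 4 was the highest. Means were 14.3 ± 1.88 FPKM in mutant glands (SD, n = 3) and 36.9 ± 17.6 FPKM in wild type (SD, n = 4), a ratio of 0.387. The log2 difference was -1.22 (SE 0.32, 95% interval -1.96 to -0.48) and did not pass over all genes (limma adjusted p = 0.167). Against wild-type replicates 1 and 2 it was -0.97 (SE 0.20, limma adjusted p = 0.0776).

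The summed adipocyte markers, too, were lower in every mutant library than in any wild-type one. The 7 markers were detected in every library and summed to 3342 to 6523 FPKM in mutant libraries and to 10270 to 22626 FPKM in wild-type ones, with replicate 4 highest as for Abcd2. Taken singly, 5 of the 7 lay lower in every mutant library than in any wild-type one, beside 10.0% of all tested genes. Plin1 and Lep overlapped with wild-type replicate 3. Among the mutant libraries, Plin1 and Lep ran in the same order as Abcd2, while 4 markers and the sum, carried mostly by Fabp4, ran in the reverse order. The median log2 difference of the markers was -1.59, and 0 of 7 passed with all 7 libraries. Their part in the result for Abcd2 was not tested. Pparg, a nuclear receptor of adipocytes, differed by -1.11 with all 7 libraries (limma adjusted p = 0.126) and fell by 0.85 on the log2 scale against wild-type replicates 1 and 2 (limma adjusted p = 0.0406).

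The peroxisomal member Abcd3 had a difference above 0. Abcd3, the abundant peroxisomal membrane protein that imports branched-chain acyl-CoA and bile acid intermediates, measured 49.7, 46.9 and 56.1 FPKM in mutant libraries, against 33.9, 38.2, 65.8 and 37.4 FPKM in wild-type replicates 1 to 4. Wild-type replicate 3 was the highest library, and the mutant libraries lay above the other 3 wild-type ones. Its log2 difference was 0.26 (SE 0.25, limma adjusted p = 0.553), and 0.48 (SE 0.13, limma adjusted p = 0.114) against wild-type replicates 1 and 2.

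Of the peroxisomal genes that act downstream or in import, 0 of 8 passed with all 7 libraries and 2 rose against wild-type replicates 1 and 2, where 1.26% of all tested genes did. The median log2 difference of the 8 was -0.23 with all 7 libraries and -0.11 against replicates 1 and 2. Ehhadh, the bifunctional enzyme of peroxisomal beta-oxidation, measured 18.4, 23.0 and 23.2 FPKM in mutant libraries, against 9.64, 9.67, 10.2 and 7.46 FPKM in wild-type replicates 1 to 4. The groups did not overlap, with a log2 difference of 1.14 (limma adjusted p = 0.0829) and of 1.07 against wild-type replicates 1 and 2 (limma adjusted p = 0.0331). Slc27a2, a very long-chain acyl-CoA synthetase, averaged 4.31 ± 0.623 FPKM in mutant glands and 1.00 ± 1.12 FPKM in wild type (SD, n = 3 and 4; 1.55, limma adjusted p = 0.158, and 2.08, limma adjusted p = 0.0142, against wild-type replicates 1 and 2). The import receptor Pex19 differed by -0.68, without passing.

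The members listed as lysosomal, Abcb9 and Abcd4, both lay higher in every mutant library than in any wild-type one, without passing. Of all tested genes, 12.5% lay so. Abca5 and Abca2, which also serve lysosomes but are listed with the lipid transporters below, went otherwise. Abca5 lay lower in every mutant library, and the groups of Abca2 overlapped. Abcb9, a lysosomal peptide transporter, measured 5.08, 6.04 and 6.05 FPKM in mutant libraries, against 3.96, 3.41, 3.62 and 4.93 FPKM in wild-type replicates 1 to 4. The nearest libraries of the groups were mutant replicate 1 and wild-type replicate 4. The log2 difference was 0.44 (SE 0.16, limma adjusted p = 0.233) and 0.52 (SE 0.13, limma adjusted p = 0.102) against wild-type replicates 1 and 2. Abcd4, which with Lmbrd1 releases cobalamin (vitamin B12) from lysosomes, measured 7.10, 7.73 and 7.44 FPKM in mutant libraries, against 6.26, 6.26, 3.14 and 3.07 FPKM in wild-type replicates 1 to 4. Wild-type replicates 3 and 4 were about as low as each other. The difference of 0.63 (limma adjusted p = 0.260) was 0.21 (limma adjusted p = 0.302) without them. Lmbrd1 differed by -0.22, and by 0.07 against wild-type replicates 1 and 2. None of the 6 genes of lysosomal and cellular cobalamin handling passed in either comparison.

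**Figure D3:**
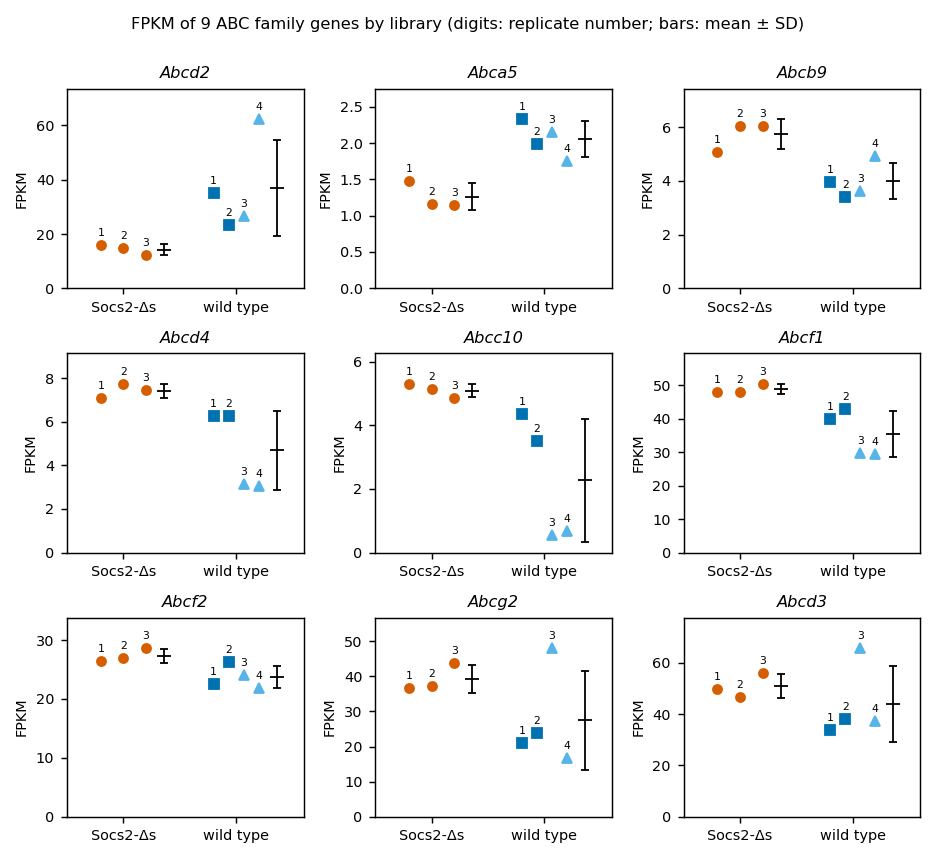
FPKM in each library of the 7 members whose groups did not overlap and of Abcg2 and Abcd3, with Socs2-Δs left of wild type, replicate numbers above the points, wild-type replicates 3 and 4 as triangles, and mean ± SD beside each group. Abcd2 and Abca5 are lower in all 3 mutant libraries; wild-type replicates 3 and 4 of Abcc10 lie at 0.559 and 0.661 FPKM, and replicate 3 of Abcg2 and Abcd3 reaches 48.1 and 65.8 FPKM.

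Lipid and sterol transporters gave both directions. Abca5, a lipid transporter of endosomes and lysosomes, measured 1.48, 1.16 and 1.15 FPKM in mutant libraries, against 2.32, 1.99, 2.15 and 1.76 FPKM in wild-type replicates 1 to 4. All mutant libraries lay below all wild-type ones, with 206 to 490 reads per library. Its log2 difference was -0.43 (SE 0.16, limma adjusted p = 0.242) and -0.48 (SE 0.14, limma adjusted p = 0.132) against wild-type replicates 1 and 2.

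Abca5 stands in a cluster with Abca6, Abca9, Abca8a and Abca8b on chromosome 11, and in each of these neighbours the groups overlapped. Abca9 averaged 3.65 ± 1.35 FPKM in mutant glands and 6.18 ± 2.51 FPKM in wild type (SD, n = 3 and 4; log2 difference -0.60, limma adjusted p = 0.337), but -0.16 against wild-type replicates 1 and 2. Abca6 differed by -0.39 with all libraries and by -0.02 against replicates 1 and 2. Abca8a measured 16.0, 8.60 and 8.20 FPKM in mutant libraries, against 12.6, 10.5, 9.72 and 8.94 FPKM in wild-type replicates 1 to 4, with mutant replicate 1 highest. The differences of Abca8a and Abca8b were 0.01 and 0.08 with all 7 libraries and -0.12 and -0.07 against replicates 1 and 2, so neither had a stable sign. Abca8a and Abca8b are close copies whose reads may be split between them. The 6 fibroblast markers summed to 962.1 to 1329 FPKM in mutant libraries and to 1565 to 2334 FPKM in wild-type ones, and the 5 macrophage markers to 170.1 to 206.8 FPKM in mutant libraries and to 226.7 to 476.9 FPKM in wild-type ones. Both sums were highest in wild-type replicates 3 and 4, as were Abca6 and Abca9. Among single markers this held for 3 of 6 fibroblast genes (Dpt, Dcn and Lum) and 4 of 5 macrophage genes, whereas for Col1a1 and Col1a2 these replicates were the lowest wild-type ones. Their part was not tested.

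Abca3, which loads phospholipid into lamellar bodies of the lung, measured 12.2, 10.2 and 9.37 FPKM in mutant libraries, against 10.7, 7.91, 4.91 and 8.00 FPKM in wild-type replicates 1 to 4. The groups overlapped through wild-type replicate 1 (log2 difference 0.42, limma adjusted p = 0.350; 0.18 against replicates 1 and 2). Abca2, an endolysosomal lipid transporter best known from myelinating cells, differed by 0.58 with all libraries and by 0.05 against wild-type replicates 1 and 2. Its wild-type replicates 3 and 4 held 2.50 and 4.73 FPKM and replicates 1 and 2 held 8.72 and 7.96 FPKM. Abca7, a phospholipid transporter with a role in phagocytosis, differed by 0.36 and 0.06. Abcg3 differed by -0.27 and -0.01. None of the 9 tested members placed on the lipid and sterol list, Abcg3 among them, passed.

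Among the 4 mitochondrial members, which serve iron-sulphur and haem metabolism, 1 had a log2 difference above 0 and 3 below, with a median of -0.08. Against wild-type replicates 1 and 2 there were 2 above and 2 below, with a median of 0.01. Abcb10, a haem-related transporter of the inner membrane, averaged 6.54 ± 0.541 FPKM in mutant glands and 6.77 ± 0.371 FPKM in wild type (SD, n = 3 and 4), and its 95% interval of -0.35 to 0.26 came with the smallest SE of the 31 members. Abcb6, a porphyrin transporter, differed by -0.11 (95% interval -0.45 to 0.22) and Abcb8 by 0.28 (95% interval -0.18 to 0.73). Against wild-type replicates 1 and 2 these differences were -0.08 and 0.03. Of the 8 listed genes of iron-sulphur and haem synthesis, none passed in either comparison.

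Of the 4 soluble members, 3 had a log2 difference above 0, with a median of 0.18, and none passed. Abcf1, which binds the initiation factor eIF2 and promotes translation, measured 48.0, 48.0 and 50.5 FPKM in mutant libraries, against 39.9, 43.0, 29.6 and 29.4 FPKM in wild-type replicates 1 to 4. The mutant libraries were tightly grouped above all wild-type ones, and wild-type replicates 3 and 4 were the lowest. The log2 difference was 0.47 (SE 0.19, limma adjusted p = 0.255), and 0.23 (SE 0.10, limma adjusted p = 0.279) against wild-type replicates 1 and 2.

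Abcf2 measured 26.5, 26.9 and 28.7 FPKM in mutant libraries, against 22.6, 26.3, 24.1 and 21.9 FPKM in wild-type replicates 1 to 4. Wild-type replicate 2 came within a fraction of an FPKM of mutant replicate 1 (log2 difference 0.20, limma adjusted p = 0.431). Abcf3 differed by 0.17. Abce1, the factor that splits ribosomes for recycling, measured 33.5, 29.2 and 35.9 FPKM in mutant libraries, against 26.0, 29.9, 49.6 and 33.9 FPKM in wild-type replicates 1 to 4. Its difference was -0.04 with all 7 libraries and 0.23 without the high wild-type replicate 3 and replicate 4. Of 6 listed genes of ribosome rescue and eIF2 kinase signalling, among them the Abce1 partner Pelo, none passed in either comparison.

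Abcc9, the sulphonylurea receptor of potassium channels in vascular muscle, measured 3.57, 3.42 and 2.66 FPKM in mutant libraries, against 4.28, 2.45, 3.26 and 5.04 FPKM in wild-type replicates 1 to 4. The groups overlapped, and the difference of -0.15 did not pass (95% interval -0.66 to 0.36, limma adjusted p = 0.712). Kcnj8, the channel pore that pairs with it, lay at 4.89 ± 0.217 FPKM in mutant glands and 5.81 ± 0.938 FPKM in wild type (SD, n = 3 and 4). The 6 pericyte and vascular muscle markers, Kcnj8 among them, summed to 96.2 to 160.7 FPKM in mutant libraries and to 79.3 to 136.1 FPKM in wild-type ones; their part was not tested. Abcc8 and Kcnj11, the receptor and pore of pancreatic beta cells, were both under the filter.

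In several members wild-type replicates 3 and 4 stood apart. In 10 of 31 members both lay outside the range of the other 5 libraries, 7 below and 3 above, which is 32.3% of members beside 50.3% of all tested genes (25.2% below and 25.1% above). The 7 were Abcc10, Abcd4, Abcf1, Abca2, Abcc5, Abcb8 and Abca7, and Abca9 and Abca6 were among the 3. The log2 differences of Abcc10, Abcd4, Abcf1 and Abca2, which were 1.12, 0.63, 0.47 and 0.58 with all 7 libraries, were 0.31, 0.21, 0.23 and 0.05 against wild-type replicates 1 and 2. The 7 salivary gland markers summed to 98.1, 99.7, 470.9 and 250.1 FPKM in wild-type replicates 1 to 4 and to 37.7 to 55.5 FPKM in mutant libraries. All but Mup4 were higher in both replicates 3 and 4 than in every other library. Their part in the values of the members was not tested.

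**Figure D4:**
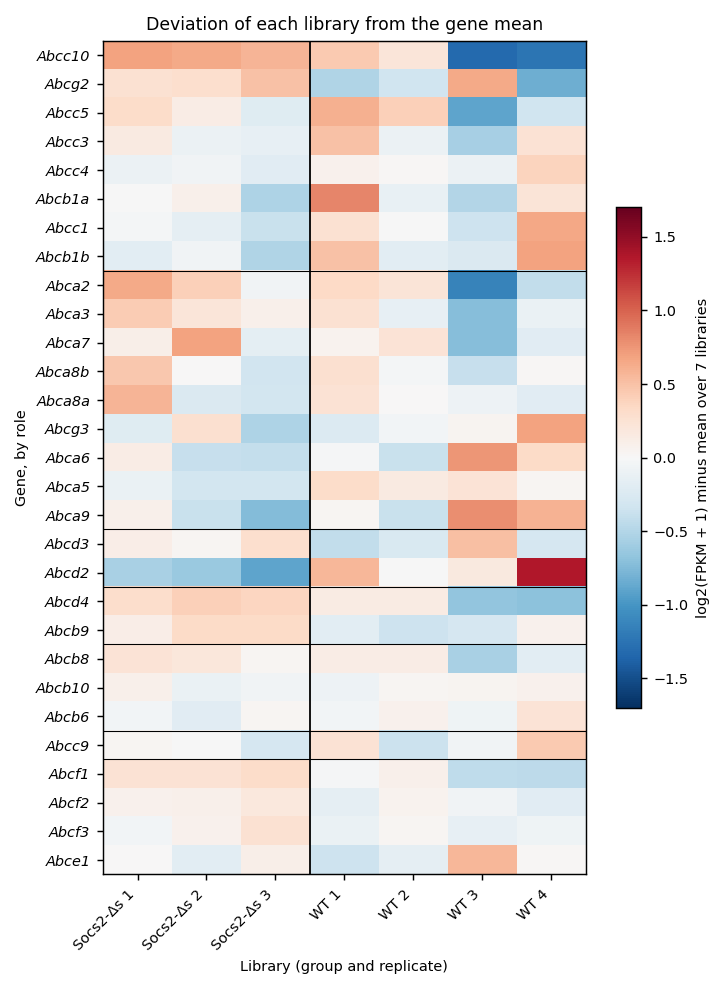
Deviation of log2(FPKM + 1) in each library from the gene's mean over 7 libraries, for 29 tested genes grouped by role, with the 3 Socs2-Δs libraries left of the 4 wild-type (WT) ones. Wild-type replicates 3 and 4 of Abcc10 (-1.33 and -1.24) and replicate 4 of Abcd2 (1.36) show the strongest colours.

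The 17 members under the filter had means of 0.00115 to 0.606 FPKM, and 8 of them never had more than 8 reads in a library. Abcb11, the bile salt export pump of liver, had 2, 3 and 8 reads in mutant libraries, against 3, 2, 16 and 87 reads in wild-type replicates 1 to 4. That is 0.0174, 0.0264 and 0.0756 FPKM in mutant libraries, against 0.0240, 0.0170, 0.153 and 0.871 FPKM in wild type. Abcc2, the conjugate pump of the bile canaliculus, had 1, 2 and 1 reads in mutant libraries, against 5, 3, 5 and 23 reads in wild-type replicates 1 to 4. Both were highest in wild-type replicate 4. The liver plasma protein gene Alb measured 2.70 to 4.01 FPKM in mutant libraries, against 6.01, 6.15, 80.9 and 1137 FPKM in wild-type replicates 1 to 4. The 8 liver markers summed to 43.2 to 193.1 FPKM in mutant and 246.8 to 1623 FPKM in wild-type libraries, but outside wild-type replicates 3 and 4 nearly all of this was Cyp2e1. The other 7 summed to 6.56 to 10.1 FPKM in mutant libraries, against 8.86, 9.77, 171.2 and 1544 FPKM in wild-type replicates 1 to 4, so that replicates 1 and 2 were within the mutant range. Among those markers, Ttr was listed at 0 in mutant replicate 3. Their part in the values of Abcb11 and Abcc2 was not tested.

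Other members known from single organs were low in the gland. Abcb4, the phosphatidylcholine exporter of liver, had 25 to 73 reads per library, and Abcg4, a sterol transporter of brain, 12 to 103. Abcg5 and Abcg8, the paired sterol pumps of gut and liver, had 14 to 27 and 1 to 5 reads. Abca4, the retinal transporter, had 10 to 22 reads, Abcc6, a liver transporter that prevents ectopic mineralisation, 4 to 13, and Abcc8 3 to 12. Abca17 had 43 to 92 reads. Abcc12, Abca12, Abca13 and Abca14 had at most 8 reads in any library, and Abca15, Abca16 and Abcb5 had a single read in 1 library each and were listed at 0 in the other 6.

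ABC proteins that carry other symbols were read from a separate list. Tap1 and Tap2, which together pump peptides into the endoplasmic reticulum for antigen presentation, were both well transcribed. Tap2 measured 88.9, 147.1 and 109.8 FPKM in mutant libraries, against 68.0, 112.4, 49.3 and 48.8 FPKM in wild-type replicates 1 to 4, with overlap through wild-type replicate 2 (log2 difference 0.77, limma adjusted p = 0.273). Tap1 averaged 55.6 ± 27.2 FPKM in mutant glands and 42.5 ± 24.4 FPKM in wild type (SD, n = 3 and 4; 0.41, limma adjusted p = 0.580). Against wild-type replicates 1 and 2 the differences of Tap2 and Tap1 were 0.36 and 0.09. Cftr, the chloride channel of the family, was under the filter at 0.318 ± 0.101 FPKM in mutant glands and 0.174 ± 0.0594 FPKM in wild type (SD, n = 3 and 4).

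Across the 10 lists of genes that work with family members, 55 of 61 genes were tested. With all 7 libraries 0 of them passed (limma; 14, or 25.5%, at an unadjusted p under 0.05, beside 18.1% of all tested genes), with a median log2 difference of -0.03. Against wild-type replicates 1 and 2, 3 rose and 2 fell, where 1.94% of all tested genes passed (1.26% higher and 0.68% lower). The risen ones were Slc27a2, Ehhadh and Stat5a (0.93, limma adjusted p = 0.0396), and the fallen ones were Pparg and Gsta4, a glutathione transferase that clears lipid aldehydes (-0.76, limma adjusted p = 0.0418). Of the lists not described above, glutathione synthesis and conjugation thus held 1 fallen gene of 7, and the factors known to act on family genes held Stat5a and Pparg among 9 tested. The 4 partners of peptide loading had no gene past the threshold. Nr1h3 and Nr1h2, the oxysterol receptors that drive sterol exporters, differed by -0.81 and 0.52 with all 7 libraries. Against wild-type replicates 1 and 2 they differed by -0.73 and 0.16, and neither passed in either comparison.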

How the data were processed

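RNA of 7 of the 16 samples was analysed, 3 Socs2-Δs and 4 wild-type mammary glands; the remaining 9 samples, from ChIP-seq and DNase-seq, were not used here. The authors deposited FPKM per gene; TruSeq libraries were built from poly(A) RNA, per the labels' protocols. Named in the submitters' processing notes, without roles, are STAR, Bowtie2, CASAVA, DESeq2 and the build mm9. For annotation, filters and strand use: not given in the sources used here.

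Whole reads were recovered from the FPKM steps for 21044 of 21044 rows above 0 (tolerance 0.02 of a read), as the smallest whole numbers that fit, so a gene's reads could be too low by a common factor. Genotypes were compared with limma 3.58.1 (R 4.3.3, trended prior variance, no covariate) on log2(FPKM + 1) of the 13392 genes averaging 1 FPKM or more, with Benjamini-Hochberg adjustment over all of them and a threshold of 0.05; it was tested on simulated data. Alternatives were other pseudocounts, filters and scalings, array weights, a replicate block, and leaving out libraries.

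The members, roles and lists were chosen with earlier results of these data known. Values in every library are given for members whose groups did not overlap with an absolute log2 difference of at least 0.5, for Abcg2, Abcb1a, Abcc9 and Abca3, for the 5 most abundant members, and for members at least 4 times higher in wild-type replicate 3 or 4 than in every other library; Abcb9, Abcf2, Abca5, Abca8a, Abcc5 and the related genes with such values were named after their values were seen. RefSeq names (GRCm38.p6) matched all 48 members by Entrez ID. Some members and related genes enter the counts and medians but are not reported here by name.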

Additional observations from a re-analysis of the deposited data

Results flagged for a closer look

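In the 4 wild-type libraries, 1 value stood far from the other 3 for 6 of the 47 members whose wild-type values varied. Chance flags about 1 in 20 groups only where values are normally distributed, which does not hold for a few reads. A single read beside values of 0 is always flagged, so the count of 6 cannot be set against that rate. Abcd3 reached 65.8 FPKM in wild-type replicate 3. Abcb11 reached 0.871 FPKM (87 reads) and Abcc2 0.209 FPKM (23 reads), both in wild-type replicate 4, the library with 1137 FPKM of Alb. The other 3 rest on 1 to 3 reads: Abca14 at 0.0219 FPKM and Abcb5 at 0.0101 FPKM in wild-type replicate 1, and Abca16 at 0.00896 FPKM in wild-type replicate 3.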

How the results depend on the processing

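Of 31 tested members, 22 kept the sign of their log2 difference under each of the 17 alternatives that gave them a value (log2 values below are mutant minus wild type). The filter at 5 FPKM gave none for 12 members, 8 of the 22 among them. Changing the filter leaves each log2 difference as it is and could not turn a sign. The term for wild-type replicates 3 and 4 gave the same log2 differences as leaving both out. The replicate block gave those of leaving out wild-type replicate 4. These alternatives are therefore not separate checks of the sign. Members called stayed at 0 except with array weights, which gave little weight to wild-type replicates 3 and 4. Replicate 2 of each genotype had the most weight. Array weights called 4 members: Abcg2 (0.68) and Abcb9 (0.56) higher, Abcd2 (-0.88) and Abca5 (-0.48) lower, among 1371 of all genes (10.2%). All genes called were 6 in the main comparison, 260 without wild-type replicates 3 and 4, 28 with quantile normalization, 1 with a pseudocount of 0.1 and with no filter, 0 with a filter at 5 FPKM, with a term for replicates 3 and 4 and with the replicate block, and 0 to 31 leaving out 1 library at a time. Members without overlap were 13 without wild-type replicates 3 and 4, and 7 to 11 leaving out 1 library, the most without wild-type replicate 3. The family median, 0.01, was 0.13 with a filter at 5 FPKM, and -0.10 to 0.11 leaving out 1 library (lowest without mutant replicate 1, highest without wild-type replicate 1). The cause was not tested.

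Signs turned for some members. Against wild-type replicates 1 and 2, and with a term for replicates 3 and 4, values were Abca8a -0.12, Abca8b -0.0704, Abcc5 -0.43 and Abce1 0.23. With array weights they were Abca8a -0.16, Abca8b -0.0006, Abcc5 -0.28, Abcc9 0.0927, Abce1 0.079 and Abcg3 0.14, and with quantile normalization Abca8a -0.0382 and Abce1 0.0754. Leaving out 1 library gave Abca8a -0.27 to 0.17, Abca8b -0.13 to 0.27, Abcc3 -0.24 to 0.11, Abcc5 -0.15 to 0.35 and Abce1 -0.17 to 0.13.

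Whether shared replicate numbers pair the samples is not stated, and the values do not settle it. Deviations from the group means correlated at 0.35, -0.104 and 0.283 across genes for replicates 1 to 3. Mutant replicates 1 and 3 correlated best with the wild-type replicate of the same number, but mutant replicate 2 correlated best with wild-type replicate 4 (0.338). The replicate block called 0 members and 0 genes, and gave Abca8a -0.0497 and Abcc3 0.0285. Of the members left untested for their low mean, 8 never had more than 8 reads in a library.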
